A study of Mus musculus with 12 samples.

Results

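Nucleoporins build the nuclear pore, and nuclear transport receptors carry cargo through it. The genes of both kinds were followed here in mouse CD8 T cells at rest and after activation, with and without Scap. Members were chosen by name alone: a probe set belonged if its only gene symbol began with Nup and a digit, Kpna and a digit, Kpnb1, Ipo and a digit, Xpo and a digit or Tnpo and a digit. The rule took 41 of the 18193 genes that had a probe set of their own, with 107 probe sets between them. It used no measured value, but it was chosen with earlier results of these data known. Of these genes, 40 passed the filter on low values and were tested among 13158 genes. The gene that did not pass was Nup210l, whose single probe set read between 4.50 and 6.03 on the log2 scale over the 12 arrays.

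The study measured polyA RNA from spleen CD8 T cells of male mice on Affymetrix arrays, in 4 groups of 3 arrays labelled as biological replicates. The WT mice carried the genotype Cd4-Cre/Scap+/+, and the KO mice carried Cd4-Cre/Scapfl/fl, so every animal had the Cre transgene. This transgene is driven by regulatory sequence of Cd4 and acts in developing T cells of both the CD4 and the CD8 lineage, so other spleen cells keep Scap. T0 arrays held quiescent purified cells, and T6 arrays held cells activated in vitro for 6 h with anti-CD3 bound to the plate and anti-CD28 in solution. The age of the animals was not given in the labels. The labels do not say whether arrays came from separate mice, or whether the T0 and T6 arrays of a number shared a mouse. The p-values set group differences against the spread between these arrays, which may not be the spread between mice. Scap, which escorts the SREBP transcription factors out of the endoplasmic reticulum, read 11.26 ± 0.25 in WT T0 and 11.01 ± 0.23 in KO T0 (log2, SD, n = 3), a difference that limma did not call (adjusted p = 0.593). At T6 it read 11.57 in WT and 11.10 in KO, again not called by limma (adjusted p = 0.273). The T6 arrays nonetheless separated for Scap, with every KO array below every WT array and a difference of -0.47. The SD at T6 was 0.02 in WT and 0.04 in KO, while the T0 arrays of the genotypes overlapped. The Scap probe set may lie outside the deleted part, which was not examined, so it did not check the genotype labels.

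The nuclear pore is a ring-shaped channel through the nuclear envelope. Its scaffold is made of an outer Y-shaped complex and an inner ring, and nucleoporins rich in phenylalanine-glycine repeats fill the channel. Importin alpha adaptors bind classical nuclear localisation signals and ride on importin beta, the product of Kpnb1, while other importins of the beta class and the exportins bind cargo directly, with direction set by the GTPase Ran. T cells enlarge their nucleus and nucleolus after stimulation, and several of these receptors carry ribosomal proteins, histones or transcription factors.

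Values below are log2(signal + 16) of the deposited array signal unless said otherwise, where a difference of 1 is a doubling for well-lit probe sets and understates the change of dim ones. A gene was represented by the probe set with the highest mean over all arrays, and levels of different genes were not compared, since probe sets differ in how brightly they bind. "Rose" and "fell" are used for genes with a limma adjusted p under 0.05, adjusted over all 13158 genes.

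The purified cells carried the markers of their label: 11 of 13 CD8 T cell markers were measured, all above the filter, and their summed linear signal lay between 57615 and 124895. Of 3 CD4 T cell markers, Cd4 was not above the filter, while the other 2, Foxp3 and Cd40lg, were. The summed signal of the 3 lay between 64 and 138. Markers of other cells were measured too. Summed myeloid signal was 15141 to 19867 in WT T0, 1196 to 2912 in WT T6, 20945 to 29981 in KO T0 and 3185 to 6849 in KO T6. Summed signal of 12 measured B cell markers was 35962 to 55934, 23586 to 38387, 49171 to 67588 and 38562 to 46083 in the same order. CD8 T cell signal moved as well, at 105012 to 124895, 79929 to 90784, 85896 to 100419 and 57615 to 71769, and the difference between the Actb 3′ and 5′ probe sets was 0.22 to 0.37, 0.45 to 0.54, 0.23 to 0.51 and 0.62 to 0.79 log2. The part of these shifts in the results below was not tested. In a bulk sample, fewer cells of a type and less RNA per cell cannot be told apart. Summed erythroid signal was 183 to 1062 in WT T0 and 542 to 884 in WT T6. In KO it was 1343 to 14380 at T0 and 1264 to 18431 at T6, so each KO array exceeded each WT array. Proliferation marker sums at T0 were 6217 to 12903 in WT and 10711 to 29489 in KO. At T6 they were 5221 to 9572 and 8477 to 32889. The part of these differences in the results was not tested. KO replicate 2 had the highest proliferation sums of its group at both times (29489 and 32889) and the highest erythroid sums (14380 and 18431). Results that rest on the KO replicate 2 arrays are given with and without them, which leaves the erythroid difference of the other KO arrays in place.

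Activation of WT cells raised 11 of the 40 tested members and lowered 1. The largest rise was in Ipo4, at 2.05-fold, followed by Tnpo3, Kpna2, Kpna3, Ipo5, Kpna1, Nup98, Nup54, Nup93, Ipo7 and Nup188, the last at 1.35-fold. Nup210 was the member that fell, by 0.40 on the log2 scale. Among 22 tested transport receptors 7 rose, and among 18 tested nucleoporins 4 rose. The share that rose was 27.5% of members against 11.3% of all genes tested, and the share that fell was 2.5% against 13.8%. In either direction, 30% of members and 25.1% of all genes were called. Every T6 array lay above every T0 array for 18 members, against 19.2% of all genes, and below for 2, against 23.6%. The median change over the 40 members was 0.23, with 30 positive and 10 negative, and over all genes it was -0.06. When each array was centred on its median instead, those medians became 0.35 and 0.05, a shift of 0.12, and 14 members rose with none called lower. The same centring turned the split over all genes from 1492 higher and 1810 lower to 1907 higher and 1141 lower.

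**Figure D1:**
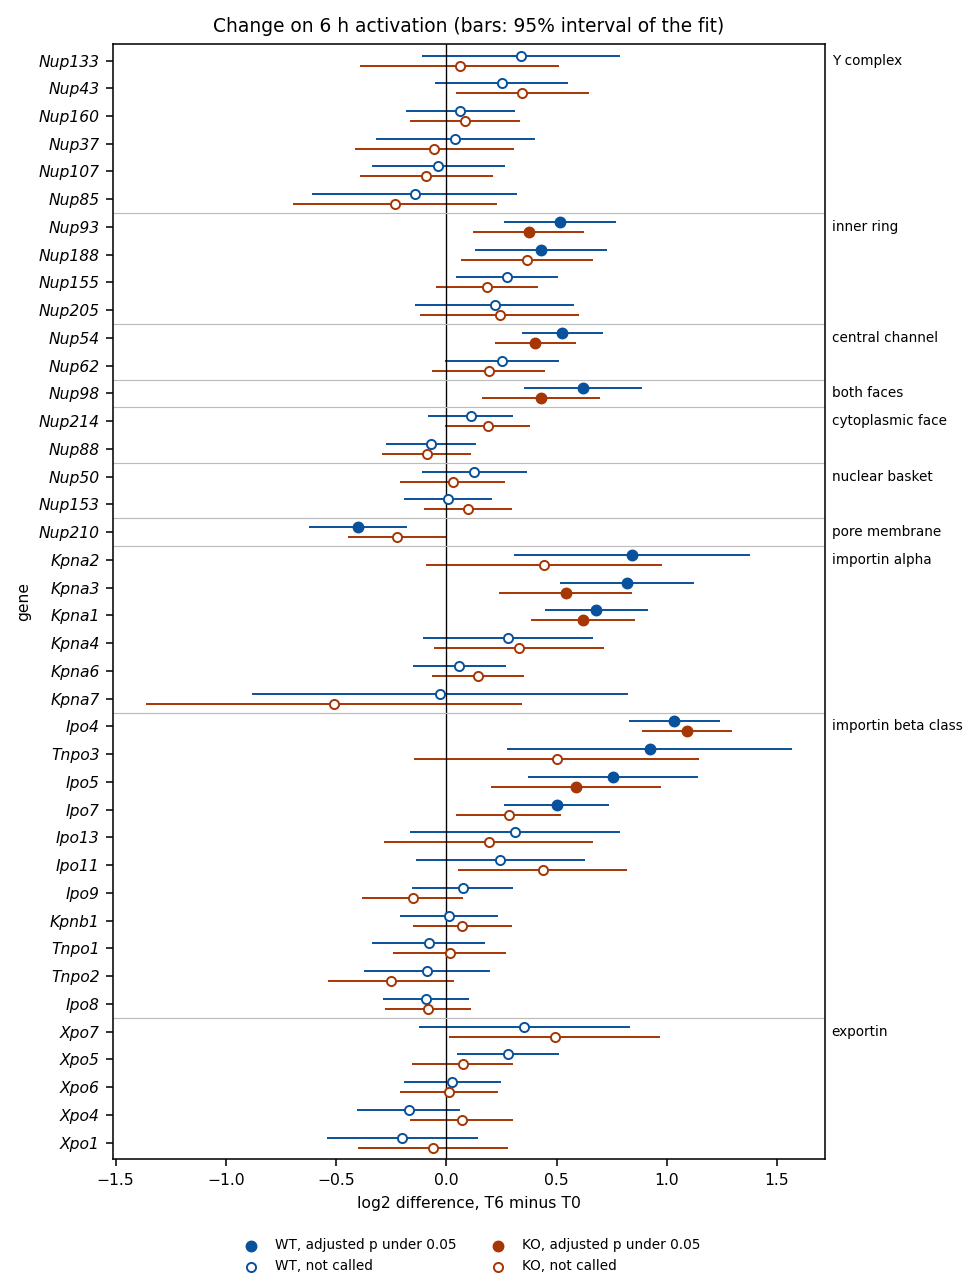
Change from T0 to T6 on the log2 scale for the 40 tested members, in WT (blue) and KO (orange-brown), grouped by role, with 95% intervals of the limma fit and filled points for adjusted p under 0.05. Importins hold most of the filled points on the right, Nup210 is the filled point on the left, and neither the 6 Y complex genes shown nor the 5 Xpo genes have one.

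Promoters were compared between the members that rose in WT and those that were not called. RefSeq windows of 250 bases before to 50 after the start (GRCm38.p6) were matched by symbol for 33 of the 41 members. The E-box CACGTG, which reads the same on both strands and is the core bound by Myc, Max and other basic helix-loop-helix proteins, lay in 5 of the 9 matched members that rose in WT and in 1 of the 23 matched members that were not called. Over all promoters in the table it was found for 8.1% of genes, and over tested genes for 11.4%, against 18.2% of the 33 members. Among tested genes it was found for 15.2% of the 1202 that rose in WT and 10.8% of the 7979 that were not called. The stretches around these matches are printed 5′ to 3′ on the gene's strand, with the E-box in capitals.

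Ipo4, chr14:55635653-55635682, minus strand: tgtcggagtctcCACGTGccgatcctcccc
Ipo7, chr7:110018151-110018210, plus strand: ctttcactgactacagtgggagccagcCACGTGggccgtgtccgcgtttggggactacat
Nup188, chr2:30286344-30286403, plus strand: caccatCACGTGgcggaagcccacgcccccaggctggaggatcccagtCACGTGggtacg
Nup54, chr5:92435267-92435326, minus strand: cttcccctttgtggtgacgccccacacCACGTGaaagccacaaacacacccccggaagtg
Nup93, chr8:94214362-94214421, plus strand: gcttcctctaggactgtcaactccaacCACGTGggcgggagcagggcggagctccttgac
Tnpo2, chr8:85036730-85036789, plus strand: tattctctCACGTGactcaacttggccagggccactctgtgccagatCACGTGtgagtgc

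The first 5 of these genes rose in WT, and Tnpo2 is the member that held the E-box without being called. In Nup188 and Tnpo2 the letters occur at 2 places each. They lay 137 bases upstream of the window's start site in Ipo7, 66 and 24 in Nup188, 100 in Nup54, 175 in Nup93 and 155 and 116 in Tnpo2, and 14 bases downstream in Ipo4. This site lay downstream of the start of the RefSeq gene in some windows, most in Ipo4 (184 bases) and Nup54 (60). A match is a description of the letters and not evidence of binding. Other motifs were searched on both strands. The ETS core GGAAG lay in 81.8% of matched members, 78.6% of tested genes and 73.9% of all genes with a promoter. CCAAT lay in 57.6%, 42.3% and 41.1% in the same order, and TGCGCA, part of the palindromic NRF1 element, in 18.2%, 15% and 8.8%. By call in WT, GGAAG lay in 100% of the 9 members that rose and 73.9% of the 23 that were not called, CCAAT in 44.4% and 65.2%, and TGCGCA in 11.1% and 21.7%.

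Among nucleoporins, the inner ring held the rises of Nup93 and Nup188. Nup93, which links the inner ring to the central channel, read 9.81, 9.79 and 10.17 in the 3 WT T0 arrays and 10.44, 10.40 and 10.49 in WT T6. All T6 arrays were above all T0 arrays, and the rise was 0.52 ± 0.11 (SE; limma adjusted p = 0.00837). KO arrays read 9.998, 10.14 and 9.97 at T0 and 10.38, 10.50 and 10.35 at T6, a rise of 0.37 (limma adjusted p = 0.0416) with no overlap. Nup188, a large scaffold subunit of the same ring, read 9.22, 8.96 and 8.89 in WT T0 and 9.52, 9.48 and 9.35 in WT T6. The groups did not overlap, and the rise of 0.43 ± 0.14 was called narrowly (limma adjusted p = 0.0407). In KO the arrays read 9.23, 9.05 and 9.10 and then 9.58, 9.23 and 9.67, where the T6 array of replicate 2 was just above the highest T0 array, and the change of 0.37 was not called (limma adjusted p = 0.0836). The ring's other subunits, Nup155 and Nup205, changed by 0.28 and 0.22 in WT and by 0.19 and 0.24 in KO without a call. The 2 other Nup155 probe sets above the filter disagreed, with -0.07 to -0.03 in WT and -0.11 to -0.10 in KO. The other Nup205 probe set gave 0.40 in WT and 0.53 in KO. Leaving out WT T0 replicate 2 or 3, any WT T6 array, KO T0 replicate 1 or 3 or KO T6 replicate 1 ended the Nup188 call in WT (limma adjusted p from 0.0505 to 0.129), and its dimmer probe set changed by 0.39 in WT and -0.08 in KO.

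Nup54, a repeat-bearing subunit of the central channel, read 10.68, 10.75 and 10.83 in WT T0 and 11.22, 11.31 and 11.31 in WT T6. KO arrays read 10.74, 10.88 and 10.86 and then 11.25, 11.18 and 11.26. The T6 arrays of each genotype lay above its T0 arrays by 0.53 ± 0.08 in WT (limma adjusted p = 0.00130) and 0.40 ± 0.08 in KO (limma adjusted p = 0.00647). Its 4 other probe sets gave -0.15 to 0.57 in WT and -0.58 to 0.47 in KO, and with the mean of all probe sets neither call held in limma (0.37, adjusted p = 0.116, and 0.15, adjusted p = 0.579). Nup62, its partner in the channel, changed by 0.25 and 0.19, not called.

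Nup98, which carries glycine-leucine-phenylalanine-glycine repeats and sits on both faces of the pore, read 11.18, 11.33 and 11.34 in WT T0 and 11.93, 12.07 and 11.71 in WT T6. The lowest T6 array was above the highest T0 array, and the rise was 0.62 ± 0.12 (limma adjusted p = 0.00447), the largest among nucleoporins in WT. In KO the arrays read 11.06, 11.41 and 11.30 and then 11.68, 11.65 and 11.73, a rise of 0.43 ± 0.12 (limma adjusted p = 0.0297). With the replicate numbers of each genotype as a block the same KO change had a limma adjusted p of 0.0599. A dimmer probe set of the gene rose by 0.58 in WT and 0.72 in KO.

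Nup210, a membrane glycoprotein that anchors the pore in the envelope, was lower after activation. It read 12.84, 12.92 and 12.80 in WT T0 and 12.34, 12.53 and 12.49 in WT T6, with every T6 array below every T0 array. The change was -0.40 ± 0.10 (limma adjusted p = 0.0155), and it was not called when arrays were centred on their median (-0.29, limma adjusted p = 0.124). In KO it read 12.74, 12.48 and 12.76 and then 12.42, 12.40 and 12.49, where 1 T0 array lay within the T6 range, and the change of -0.22 was not called (limma adjusted p = 0.151). The WT call in limma ended on leaving out WT T0 replicate 2 (-0.37, adjusted p = 0.0549) or WT T6 replicate 1 (-0.34, adjusted p = 0.0602), and with the mean of its probe sets (-0.12, adjusted p = 0.679), of which the dimmer gave 0.16 in WT.

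The 6 Y complex subunits that the name rule takes, Nup160, Nup133, Nup107, Nup85, Nup43 and Nup37, had a median change of 0.05 in WT and 0.00 in KO. None of these 6 was called in either genotype, while Sec13 and Seh1l, subunits of the same complex under other names, had calls that are given with the pathway lists. Their WT changes ran from -0.14 for Nup85 to 0.34 for Nup133, whose WT T0 arrays were spread from 9.78 to 10.41 below 10.48, 10.48 and 10.54 at T6. Nup153 and Nup50 of the nuclear basket changed by 0.01 and 0.13 in WT and by 0.10 and 0.03 in KO, and Nup214 and Nup88 of the cytoplasmic face by 0.11 and -0.07 in WT and by 0.19 and -0.09 in KO. Nup153, which anchors the basket, read 12.45, 12.60 and 12.51 in WT T0 and 12.53, 12.50 and 12.55 in WT T6, with full overlap of the groups. None of these 4 was called.

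Importin alpha adaptors gave 3 rises of 6 tested genes in WT and 2 of 6 in KO. Kpna1 read 10.21, 10.08 and 10.15 in WT T0 and 11.01, 10.73 and 10.73 in WT T6, then 10.14, 10.29 and 10.03 in KO T0 and 10.81, 10.74 and 10.76 in KO T6. The T6 arrays of both genotypes were well above all T0 arrays. The rises were 0.68 ± 0.11 in WT (limma adjusted p = 0.00124) and 0.62 ± 0.11 in KO (limma adjusted p = 0.00253), and the 4 other probe sets above the filter rose in both, by 0.29 to 1.19 and 0.11 to 0.66.

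Kpna3 read 9.68, 10.05 and 10.15 in WT T0 and 10.63, 10.85 and 10.86 in WT T6. In KO it read 10.15, 10.42 and 10.28 and then 10.76, 10.81 and 10.91. The times did not overlap in either genotype, and the rises were 0.82 ± 0.14 (limma adjusted p = 0.00182) and 0.54 ± 0.14 (limma adjusted p = 0.0180). Both other probe sets gave 0.55 and 0.70 in WT and 0.53 and 0.33 in KO. Its KO call ended on leaving out KO T0 replicate 1 (limma adjusted p = 0.0685), KO T0 replicate 3 (0.0514) or KO T6 replicate 3 (0.0650).

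Kpna2, an adaptor known for its high level in dividing cells, read 11.43, 11.86 and 12.14 in WT T0 and 12.67, 12.73 and 12.58 in WT T6. The WT groups did not overlap, and the rise was 0.84 ± 0.24 (limma adjusted p = 0.0277). In KO the arrays read 12.28, 12.81 and 11.94 at T0 and 12.61, 13.11 and 12.63 at T6, so the T0 array of replicate 2 lay above 2 of the T6 arrays. The KO change of 0.44 was not called (limma adjusted p = 0.237). Nor was it called under any of the 24 alternatives, which include leaving out the replicate 2 arrays (smallest limma adjusted p = 0.0671). Across the 6 T0 arrays the order of Kpna2 was the order of the mean of 9 proliferation markers, from WT T0 replicate 1 (11.43 for Kpna2 and 9.10 for the markers) to KO T0 replicate 2 (12.81 and 11.23). In WT the same marker mean went from 9.66 to 9.14 between T0 and T6 while Kpna2 rose. Leaving out WT T0 replicate 1 or 2 or any WT T6 array ended the WT call (limma adjusted p from 0.0554 to 0.0947).

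The other adaptors were not called. Kpna4, which with Kpna3 is known to import NF-kappa B subunits, changed by 0.28 in WT and 0.33 in KO. Kpna6 changed by 0.06 and 0.14 on its tested probe set and by 0.53 and 0.54 on its dimmer one. Kpna7 changed by -0.03 and -0.51, with group means of 5.39 to 5.90 against filter levels of 5.64 to 5.87, so it was barely above background.

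**Figure D2:**
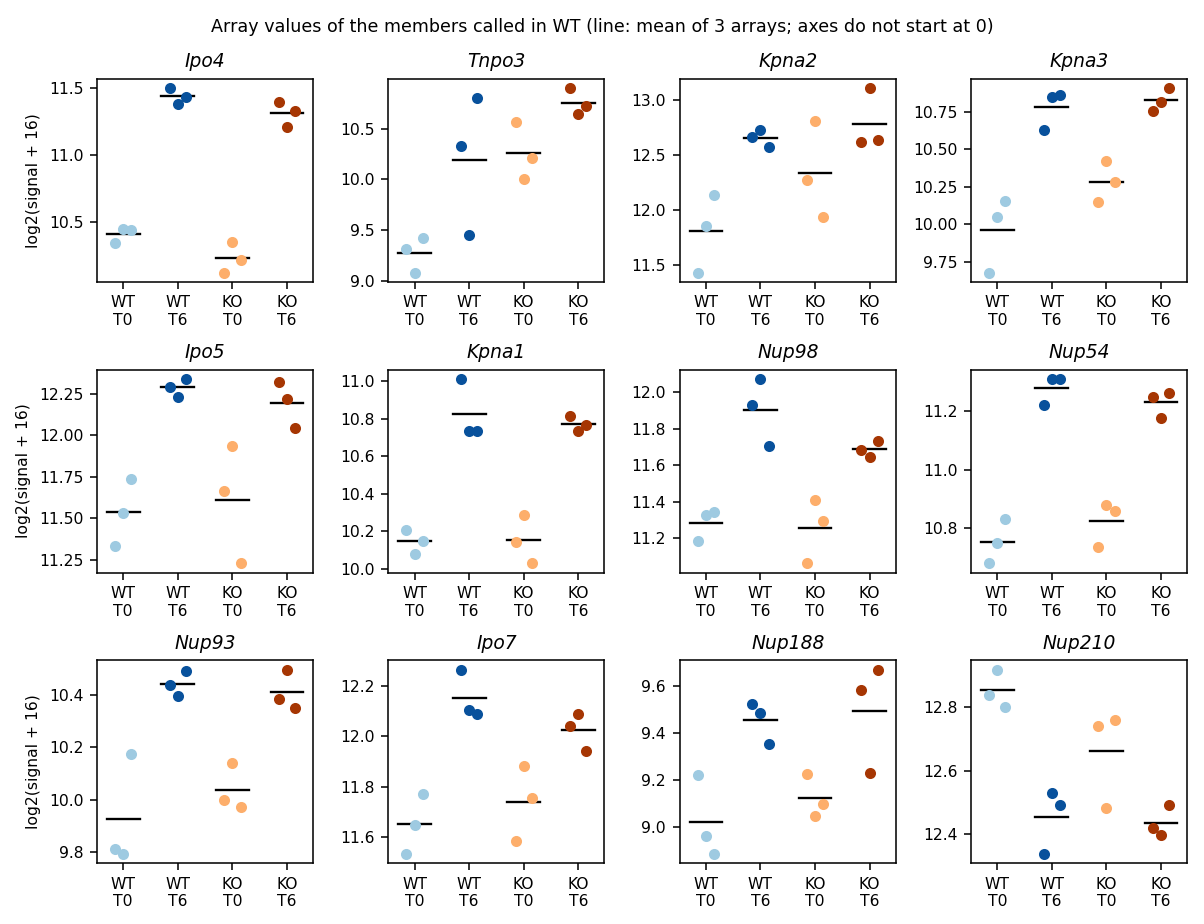
Array values, log2(signal + 16), of the 12 members called in WT, 1 panel per gene, with the 3 arrays of each group as points and their mean as a line; the axes do not start at 0. The T6 points lie above the T0 points in WT for 11 genes and below them for Nup210, and the spread is widest for Tnpo3 in WT T6 and Kpna2 at T0.

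Importins of the beta class gave 4 rises of 11 tested genes in WT and 2 in KO. Ipo4, an importer of histones and ribosomal proteins, read 10.34, 10.45 and 10.43 in WT T0 and 11.50, 11.38 and 11.44 in WT T6. In KO it read 10.12, 10.34 and 10.21 and then 11.40, 11.21 and 11.33. The gap between the times was several times the spread within a group. The rises were 1.03 ± 0.09 in WT (limma adjusted p = 4.6e-05) and 1.09 ± 0.09 in KO (limma adjusted p = 4.1e-05), the largest of any member in either genotype. Its other probe set rose by 0.97 and 0.91, and both calls held under each of the 24 alternatives tried.

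Ipo5, which imports ribosomal proteins and histones, read 11.33, 11.53 and 11.74 in WT T0 and 12.29, 12.23 and 12.34 in WT T6, a rise of 0.75 ± 0.17 (limma adjusted p = 0.0104). In KO it read 11.66, 11.94 and 11.23 and then 12.32, 12.22 and 12.05, a rise of 0.59 (limma adjusted p = 0.0365). T0 and T6 did not overlap in either genotype, but the KO T0 arrays were spread from 11.23 to 11.94. Of its other probe sets, the brighter rose by 0.93 and 0.82, and the dim one read -0.18 and -0.38. Ipo7, which also carries ribosomal proteins, read 11.53, 11.65 and 11.77 in WT T0 and 12.27, 12.10 and 12.09 in WT T6. Its rise in WT was 0.50 ± 0.11 (limma adjusted p = 0.00733), and in KO, where 11.58, 11.88 and 11.76 went to 12.04, 12.09 and 11.94 without overlap, the change of 0.28 was not called (limma adjusted p = 0.0932). The other Ipo7 probe sets were dimmer and gave -0.20 and 0.24 in WT, and with the mean of all of them the WT change was not called (0.18, limma adjusted p = 0.402).

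Tnpo3, which imports serine- and arginine-rich splicing factors, read 9.31, 9.08 and 9.42 in WT T0 and 10.33, 9.45 and 10.80 in WT T6. The lowest T6 array was just above the highest T0 array and far below the other T6 arrays. The rise was 0.92 ± 0.29 (limma adjusted p = 0.0417), and the call ended on leaving out any WT T0 array, WT T6 replicate 1 or 3, KO T0 replicate 3 or any KO T6 array (limma adjusted p from 0.0508 to 0.128). The KO arrays read 10.56, 10.00035 and 10.21 and then 10.90, 10.64 and 10.73, a change of 0.50 that was not called (limma adjusted p = 0.271). Of its other probe sets, the dimmer gave 1.11 in WT with the same low T6 array, at 8.0 against 9.25 and 9.62, and the other gave 0.41 with T6 arrays of 9.62, 9.66 and 9.75.

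Kpnb1, the carrier of every importin alpha, read 11.58, 11.71 and 11.87 in WT T0 and 11.72, 11.74 and 11.74 in WT T6 on its tested probe set, and its change was 0.01 (95% interval -0.21 to 0.24). In KO the change was 0.07. Its 3 other probe sets above the filter gave 0.38 to 0.58 in WT and 0.17 to 0.36 in KO, so the probe sets of this gene disagreed. Tnpo1 and Tnpo2, importers of proline-tyrosine signal cargo, changed by -0.08 and -0.09 in WT and by 0.02 and -0.25 in KO. The 2 other Tnpo1 probe sets above the filter disagreed, with 0.37 to 0.46 in WT and 0.21 to 0.33 in KO. Those of Tnpo2 gave 0.04 to 0.10 in WT and -0.32 to -0.17 in KO. Ipo8, Ipo9, Ipo11 and Ipo13 were not called in either genotype, with WT changes of -0.09, 0.08, 0.25 and 0.31, and a dimmer Ipo11 probe set read -1.57 in WT and -1.16 in KO. With the mean of both Ipo11 probe sets the WT change was -0.66 and was called lower (limma adjusted p = 0.0258).

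None of the 5 tested Xpo genes was called in either genotype, and the exporters Xpot and Cse1l, outside the name rule, are given with the pathway lists. Xpo1, the exporter of leucine-rich signal cargo, read 12.25, 12.37 and 12.46 in WT T0 and 12.06, 12.35 and 12.07 in WT T6, a change of -0.20 (95% interval -0.54 to 0.14). Xpo5, the exporter of microRNA precursors, read 9.58, 9.78 and 9.87 and then 10.13, 9.98 and 9.96, with all T6 arrays above all T0 arrays and a change of 0.28 that was not called (limma adjusted p = 0.0742) but was with arrays centred on their median (0.40, limma adjusted p = 0.0264). In KO the Xpo5 change was 0.07. Xpo4 changed by -0.17 and 0.07, Xpo6, the exporter of actin, by 0.03 and 0.01, and Xpo7 by 0.35 and 0.49. The 2 other Xpo4 probe sets above the filter gave -0.29 to 0.15 in WT and -1.25 to -0.09 in KO. Those of Xpo7 gave -0.42 to 0.11 in WT and 0.04 to 0.38 in KO.

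**Figure D3:**
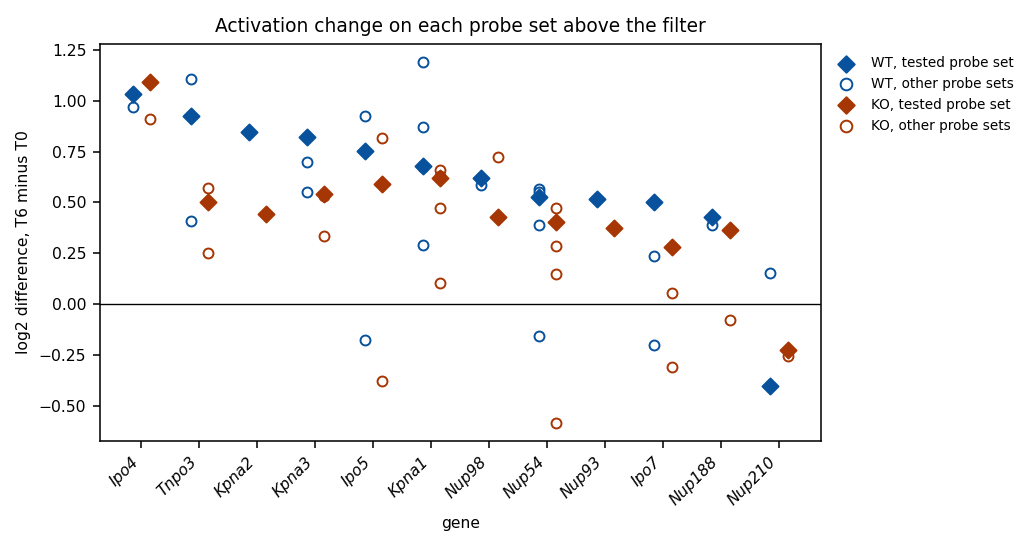
Difference from T0 to T6 on every probe set above the filter, for the 12 members called in WT, with the tested probe set as a diamond and the others as open circles, WT in blue and KO in orange-brown. All probe sets of Ipo4, Tnpo3, Kpna1, Kpna3 and Nup98 are above 0, while Ipo5, Nup54 and Ipo7 each have a probe set below 0 in each genotype.

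Activation of KO cells raised 7 of 40 members and lowered none. The share that rose was 17.5% of members against 10.4% of all genes tested, and 10.4% of all genes fell, so 20.9% of all genes were called in either direction. Every T6 array lay above every T0 array for 13 members, against 18.9% of all genes, and below for 2, against 17.6%. At an unadjusted p under 0.05 in limma, 13 of 40 members changed in KO and 14 in WT. Over the 13158 genes tested 4308 and 4798 did, shares near those of the members. The 7 genes were Ipo4, Kpna1, Ipo5, Kpna3, Nup98, Nup54 and Nup93. They made up all of the KO calls and 58.3% of the 12 WT calls, and for all genes the shared calls were 78.0% of the KO calls and 64.9% of the WT calls. The WT and KO contrasts use different arrays. The median change over the members was 0.17 in KO against 0.00 for all genes, with 30 positive and 10 negative as in WT.

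The KO count depended on the arrays in the fit. Leaving out either KO T0 replicate 1 or replicate 3 gave 3 calls, and leaving out either KO T6 replicate 1 or replicate 3 gave 4. Leaving out KO T0 replicate 2 gave 9, as did leaving out both replicate 2 arrays. The Nup93 call in limma ended on leaving out any KO array other than KO T0 replicate 2, or any WT T6 array (adjusted p from 0.0558 to 0.117), and without both replicate 2 arrays (0.38, adjusted p = 0.0942). That of Ipo5 ended on leaving out the same arrays or WT T0 replicate 2 (limma adjusted p from 0.05005 to 0.115), and held without both replicate 2 arrays (0.74, adjusted p = 0.0291). Nup98 lost its call when KO T0 replicate 1 or 3 or KO T6 replicate 1 or 3 was left out (limma adjusted p from 0.0613 to 0.103), and held without both replicate 2 arrays (0.53, adjusted p = 0.0393). The calls of Nup93, Ipo5 and Nup98 also ended with no filter and with only the groups of the contrast. With the mean of its probe sets the call of Ipo5 ended too (0.34). Ipo4 and Kpna1 kept their calls under each of the 24 alternatives. Other members gained a limma call: Ipo11 (adjusted p = 0.0496) and Nup188 (0.0189) without KO T6 replicate 2, Nup43 (0.0370) and, as lower, Nup210 (0.0496) without KO T0 replicate 2, and Xpo7 (0.0473) without KO T6 replicate 3.

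Whether Scap loss altered the activation change was tested as an interaction, the KO difference between T6 and T0 minus that of WT. No member was called by limma, none had an unadjusted p under 0.05, and over all genes none was called and 604 had an unadjusted p under 0.05. The smallest p-values among members belonged to Xpo4 (0.24 ± 0.15), Ipo9 (-0.23 ± 0.15) and Kpna3 (-0.28 ± 0.19), each with an adjusted p of 0.99972. The median interaction was -0.06 over members and 0.04 over all genes. The intervals were wide: for Kpna2 the difference was -0.40 (95% interval -1.16 to 0.36), for Tnpo3 -0.42 (-1.34 to 0.49), for Nup98 -0.19 (-0.57 to 0.19) and for Ipo4 0.06 (-0.23 to 0.35). With 3 arrays a group, the fit did not separate the KO change from the WT change for any member.

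At T0 no member was called between KO and WT by limma, where 5 of all genes were called (0.038%), all lower in KO. At an unadjusted p under 0.05, 5 members and 1286 of all genes differed. The median difference was 0.03 over members. Every KO T0 array was above every WT T0 array for 3 members, against 8.12% of all genes, and below for 5, against 8.51%. The smallest p was that of Tnpo3, at 0.99 ± 0.29 (limma adjusted p = 0.403), with KO arrays of 10.00035 to 10.56 above WT arrays of 9.08 to 9.42. Its probe sets were split here: the dimmer gave 1.16, and the remaining probe set gave 0.06, with 9.43, 9.07 and 9.31 in WT against 9.43, 9.25 and 9.32 in KO. Xpo4, an exporter of the translation factor eIF5A, read lower in KO at T0 on its tested probe set, with 8.48, 8.51 and 8.49 against 8.70, 8.71 and 9.0 in WT (-0.31 ± 0.10, limma adjusted p = 0.432). Both other Xpo4 probe sets above the filter gave differences of the opposite sign, 0.20 and 0.33, and the mean over the gene's probe sets gave 0.074. Ipo9, a histone importer, read 10.49, 10.60 and 10.50 in KO against 10.17, 10.12 and 10.43 in WT (0.28 ± 0.10, limma adjusted p = 0.456).

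At T0 the members also varied between arrays of a group. KO T0 replicate 2 was the highest of the 6 T0 arrays for 22 of 40 members (55.0%), against 20.0% of all genes tested. WT T0 replicate 1 was the lowest and KO T0 replicate 2 the highest for 10 members (25%), against 8.48% of all genes: Ipo7, Kpna2, Kpna3, Kpnb1, Nup133, Nup155, Nup50, Nup54, Nup85 and Xpo5. Those arrays also had the lowest and the highest T0 sums of the proliferation markers, 6217 and 29489. These counts were chosen after the values were seen and are given as a description.

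At T6 no member was called between KO and WT by limma, where 4 of all genes were called higher (0.0304%) and 9 lower (0.0684%). At an unadjusted p under 0.05, 1 member and 1549 of all genes differed. The median difference was -0.02 over members and 0.04 over all genes. Every KO T6 array was above every WT T6 array for none of the members, against 10.8% of all genes, and below for 3, against 8.01%. The member with the smallest p was Tnpo2, which read 9.52, 9.85 and 9.35 in WT T6 and 8.96, 9.17 and 9.13 in KO T6. All KO arrays were below all WT arrays, at both T6 and T0, and the T6 difference was -0.49 ± 0.13 (limma adjusted p = 0.207). Its dimmer probe sets gave 0.14 and -0.27.

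Xpo7, an exportin also known from maturing erythroid cells, read 11.56, 11.50 and 11.45 in WT T6 and 11.80, 12.51 and 11.54 in KO T6. The array at 12.51, KO T6 replicate 2, had the highest erythroid marker sum of all 12 arrays, 18431, against 542 to 884 in WT T6. The next highest sum, 14380 on KO T0 replicate 2, went with an Xpo7 value of 11.57, while 7021 on KO T0 replicate 1 went with 11.53 and 5225 on KO T6 replicate 1 with 11.80. Of that list 3 of 6 genes were measured and 2 were above the filter. The difference was 0.45 ± 0.21 (limma adjusted p = 0.450), and without KO T6 replicate 2 it was 0.17 (limma adjusted p = 0.736). With the mean of the Xpo7 probe sets it was -0.0030. Tnpo3 differed by 0.57 ± 0.29 at T6 (limma adjusted p = 0.483).

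**Figure D4:**
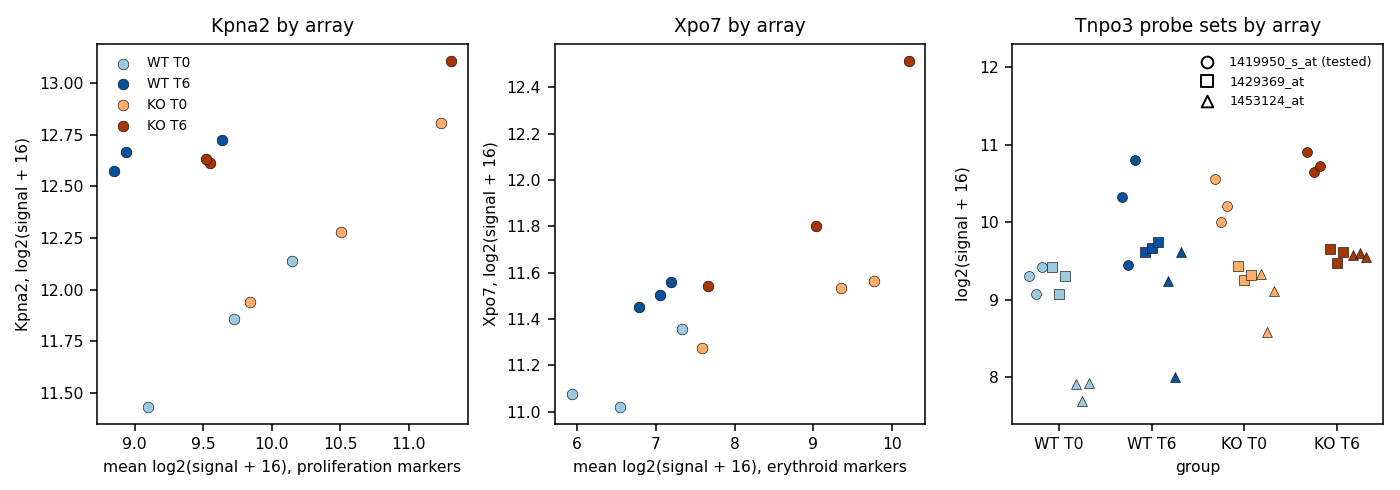
Left, Kpna2 against the mean of the proliferation markers, and middle, Xpo7 against the mean of the erythroid markers, with 1 point per array on log2(signal + 16) axes; right, the 3 Tnpo3 probe sets above the filter by group. Kpna2 follows the markers across the T0 arrays, the top Xpo7 point is KO T6 replicate 2 at 12.51, and the squares of the right panel stay level between WT and KO where the circles and triangles do not.

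**Figure D5:**
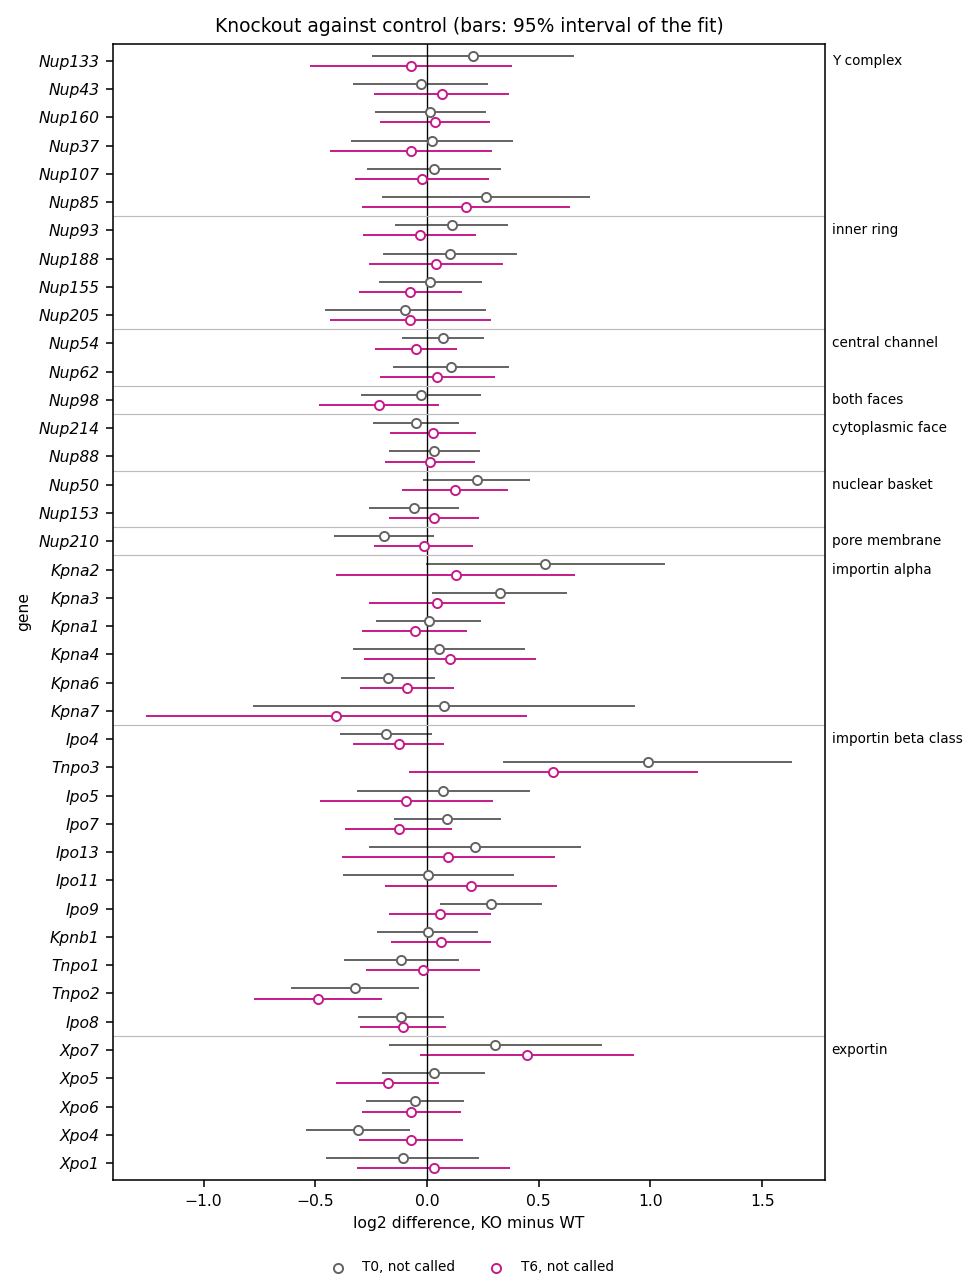
Difference between KO and WT on the log2 scale for the 40 tested members at T0 (grey) and at T6 (magenta), grouped by role, with 95% intervals of the limma fit. No point is called, and Tnpo3 is farthest out, at 0.99 at T0.

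Genes of the pathway that the name rule does not take were followed from 3 lists, of which 35 of 39 genes were tested. In WT 12 rose and 1 fell, with a median of 0.25, and in KO 8 rose and 3 fell, with a median of 0.11. Of all genes tested, 11.3% rose and 13.8% fell in WT, with a median of -0.06. In KO 10.4% rose and 10.4% fell, with a median of -0.004. None was called between KO and WT at either time or in the interaction. The Ran cycle list, with cargo adaptors and karyopherins under other names, gave 7 rises of 10 tested genes in WT and 1 in KO, where 11.3% and 10.4% of all genes rose. The difference between these counts is not a tested difference: no gene of the list was called in the interaction, and in KO Ran, Ranbp1 and Rcc1 missed the threshold with limma adjusted p of 0.0504, 0.0602 and 0.0726. The WT rises were in Rcc1, the exchange factor that loads Ran with GTP (0.92, limma adjusted p = 0.0204), Xpot, the exporter of transfer RNA (0.74), Ranbp1 (0.54), Ranbp2 (0.51), Rangap1, the activator of Ran's GTPase (0.50), Ran itself (0.47) and Cse1l, which returns importin alpha to the cytoplasm (0.38).

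Ran read 13.67, 13.78 and 13.85 in WT T0 and 14.27, 14.20 and 14.22 in WT T6, and 13.44, 14.03 and 13.66 and then 14.08, 14.23 and 14.10 in KO. T6 was above T0 in both genotypes without overlap, and the KO change was 0.43. Rangap1 read 9.92, 9.96 and 10.16 in WT T0, 10.31, 10.74 and 10.49 in WT T6, 10.28, 10.58 and 10.25 in KO T0 and 10.45, 10.59 and 10.51 in KO T6. Its KO T0 arrays were all above those of WT T0, as for 8.12% of all genes. That difference of 0.36 was not called (limma adjusted p = 0.456). The KO change of 0.15 was not called, and neither was the interaction (-0.36, limma adjusted p = 0.99972).

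Among nucleoporins under other names, Ranbp2, the large filament protein of the cytoplasmic face, Sec13, also of the Y complex, and Pom121 rose in WT (0.51, 0.47 and 0.43) and in KO (0.52, 0.28 and 0.31). Seh1l, of the same complex, rose in KO by 0.36 (limma adjusted p = 0.0445) and changed by 0.33 in WT (limma adjusted p = 0.0558), and Rae1, a partner of Nup98, fell in KO by 0.30. Among 15 tested genes of messenger RNA export, Eny2, Thoc3 and Nxt1 rose in WT (0.72, 0.39 and 0.30) and in KO (0.88, 0.39 and 0.29), and Mcm3ap, the scaffold of the TREX-2 complex, fell in WT by 0.39 and in KO by 0.34. Thoc1 rose (0.37) and Thoc2 fell (-0.35) in KO, and in WT they changed by 0.27 and 0.08.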

How the data were processed

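The deposited table holds 1 intensity per probe set and array, made by the authors with GCOS, whose version is not stated, per the submitters' processing notes. How arrays were scaled to each other is not given in the sources used here, and the number of arrays limits the precision. Of 45101 probe sets, 64 controls were left out, 34945 had 1 symbol in GEO's platform annotation, 932 had several and 9160 had none. Intensities were taken as log2(signal + 16), and no further normalization was applied. The probe set with the highest mean stood for a gene, and genes above percentile 40 of their array on at least 3 arrays were kept. All 12 arrays were fitted with 4 group coefficients in limma 3.58.1 (R 4.3.3), two-sided, with Benjamini-Hochberg adjustment, and the fit was tested on simulated data.

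The members, lists and tests were chosen with earlier results of these data known. Full statistics go to members called on activation, to the importin alpha family and to the 3 members with the smallest p in each other comparison. Deviations of same-numbered T0 and T6 arrays correlated at 0.23, -0.06 and -0.11 in WT and at 0.18, 0.46 and 0.38 in KO. These few values do not settle whether the numbers pair samples, and the main fit took no arrays as pairs. The block alternative took same-numbered T0 and T6 arrays as pairs in both genotypes for activation and the interaction. For KO against WT it used the number alone. Alternatives changed the added constant, normalization, filter, probe set rule, arrays and block. Promoters are from RefSeq (GRCm38.p6), and protein sequences were not analysed here.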

Additional observations from a re-analysis of the deposited data

How the results depend on the processing

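The count of members called on activation in WT was 12 and ranged from 10 to 14 over changes of constant, normalization, filter, probe set rule, arrays in the fit and block, and from 8 to 12 when each array was left out. The KO count of 7 became 4 with no filter, where more genes were tested, and 4 with only the groups of the contrast, where fewer arrays gave the spread, and ranged from 3 to 9 when each array was left out. With the replicate block, 12 members were called in WT and 6 in KO, and none in the other comparisons. Without both KO replicate 2 arrays, an alternative chosen after seeing the data, the counts were 11 and 9. No member was called between KO and WT or in the interaction under any alternative, though the count over all genes moved from 5 to between 1 (only the groups of the contrast) and 10 (constant of 64) at T0, and from 13 to between 0 (only the groups of the contrast) and 33 (percentile 60) at T6. Averaging all probe sets of a gene, the difference between KO and WT turned to 0.074 for Xpo4 at T0 and -0.0030 for Xpo7 at T6, and the Xpo4 interaction to -0.32. Without probe sets ending in _s_at or _x_at, Tnpo3 at T6 turned to -0.094. For the members called on activation and the 3 with the smallest p in each other comparison, 597 of 669 values kept direction and call, 68 lost the call and the 4 above changed sign. The 597 include uncalled members that stayed uncalled and had no call to lose. All 68 losses were among the members called on activation. Over all 40 members, 13 changed sign under at least 1 alternative in WT activation and 11 in KO activation. Between KO and WT 24 did at T0 and 27 at T6, and 23 did in the interaction. None of these was called in the main fit, and Ipo11 was called lower in WT with the mean of its probe sets. In WT, Nup155, Nup62 and Xpo5 gained a call with arrays centred on their median. Beyond the choice of probe set, the cause was not tested. Dim probe sets, such as that of Kpna7, limit what can be seen.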
